A study of Drosophila melanogaster with 11 samples.

Results

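The genes described here encode proteins of the mitochondrial ribosome in Drosophila melanogaster. They were taken by symbol: every gene whose FlyBase symbol starts with mRpL (large subunit) or mRpS (small subunit) and that had a mean of at least 10 counts over the 11 RNA-seq libraries. The count table listed 17753 genes, of which 72 carried such a symbol and 71 passed the limit, 46 of the large and 25 of the small subunit. The lowest member kept, mRpL41, had a mean of 141.1 counts. The member not kept, mRpL53, had 0 counts in every library, so no member lay near the limit. All of the exons of mRpL53 (829 of 829 bases) lie within those of CG33155 on the same strand of chromosome 2R. They lie between positions 13954195 and 13955664 (dm6), and CG33155 itself had 0 to 10 counts per library. Exons of AGO1 on the other strand also overlap mRpL53. Reads from shared bases may not have been assigned, so the 0 counts of mRpL53 do not show that its RNA was absent.

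The libraries came from a study of the histone variant H2A.Z and of the remodeler Domino, which deposits it, at zygotic genome activation. They comprise 4 libraries of Ctrl unfertilized eggs, 3 of Ctrl embryos (replicates 2, 3 and 4) and 4 of DomKD embryos, both kinds of embryo at stage 5. Ctrl eggs and embryos carry the genotype label t180 and DomKD embryos the label t216. In both genotypes the mothers carried mat-alpha-Gal4, a driver that acts in the maternal germline, together with either a control line or a UAS hairpin line against domino of the Transgenic RNAi Project. The knockdown thus acts in the mother, and the RNA was extracted from whole eggs or embryos. In such bulk samples, fewer cells of a type and less RNA per cell cannot be told apart. Nothing states that replicates of a group were collected separately, so p-values measure the spread between these libraries, which may be technical.

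The mitochondrial ribosome translates the few messages encoded by the mitochondrial genome, which specify core subunits of the respiratory chain and of ATP synthase. Its RNA comes from the mitochondrial genome, whereas all of its proteins are encoded in the nucleus, translated in the cytoplasm and imported. Some proteins have a bacterial counterpart and share its number, while others were added in the lineage of mitochondria. In early fly embryos, mitochondria and most messenger RNAs are at first supplied by the mother, and maternal RNA is cleared as zygotic transcription starts.

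The labels were checked against the data. Between 11809453 and 17700171 counts fell on genes per library. The targeted gene dom was lower in every DomKD library than in every Ctrl embryo library, by 25.2-fold (log2 fold change -4.66, standard error (SE) 0.18, adjusted p = 1.24e-06, edgeR). Summed levels of 10 zygotic blastoderm markers were 72.1 to 86.6 TPM (counts divided by exon length and scaled to a fixed total per library) in eggs. They were 2086 to 2752 TPM in Ctrl embryos and 2747 to 3581 TPM in DomKD embryos. Summed levels of 4 maternal markers were 2257 to 2358 TPM in eggs, 553 to 846 TPM in Ctrl embryos and 624 to 848 TPM in DomKD embryos. Of these 4, 3 were lower in Ctrl embryos than in eggs at an adjusted p under 0.05 (edgeR) and 1 did not pass. Markers of later stages, neurons and follicle cells summed to at most 3.22 TPM per list in any library. In Ctrl embryo replicate 2 a further RNA, the signal recognition particle RNA 7SLRNA:CR32864, had 68 counts against 621 and 442 in replicates 3 and 4, which placed that library with the DomKD libraries (48 to 103 counts). Counts of calls and medians over the members are therefore also given without that library. The remaining Ctrl embryo libraries, however, both differ from every DomKD library in this RNA. In comparisons without replicate 2, this library difference and the knockdown cannot be told apart.

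All 71 members were present in eggs at even levels. Every member exceeded 5 TPM in all 4 egg libraries, and likewise 10 TPM, whereas 35.7% of all genes listed passed 5 TPM in at least 3 eggs. The members had already passed a limit on counts. Of the 7565 genes that passed such a limit in eggs and Ctrl embryos, 6324 exceeded 5 TPM in at least 3 eggs. The mean level lay between 50 and 150 TPM for 65 members. Across the members, the highest level in an egg library was only 6.50 to 7.39 times the lowest. Replicates lay close together, with a median coefficient of variation over members of 4.60% in eggs, 7.71% in Ctrl embryos and 8.03% in DomKD embryos. The range of exon length was 327 to 2078 nt, with a median of 783 nt, and these levels are per length.

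The highest member in eggs was mRpL12, which forms the flexible stalk of the large subunit that recruits translation factors. Its level in the 4 eggs was 219, 229.9, 222 and 239.9 TPM. It was followed by mRpS18A (193 ± 5.41 TPM, mean ± SD, n = 4), mRpS10 (177 ± 7.79 TPM) and mRpS7 (165 ± 2.23 TPM). At the other end were mRpL41 (32.7 ± 2.61 TPM), mRpS18C (49.98 ± 2.298 TPM), mRpL2 (50.3 ± 2.73 TPM), a protein of the catalytic core, and mRpL48 (53.1 ± 2.03 TPM). The egg values of mRpS18C, mRpL2 and mRpL48 overlapped, so these neighbours have no firm order.

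**Figure D1:**
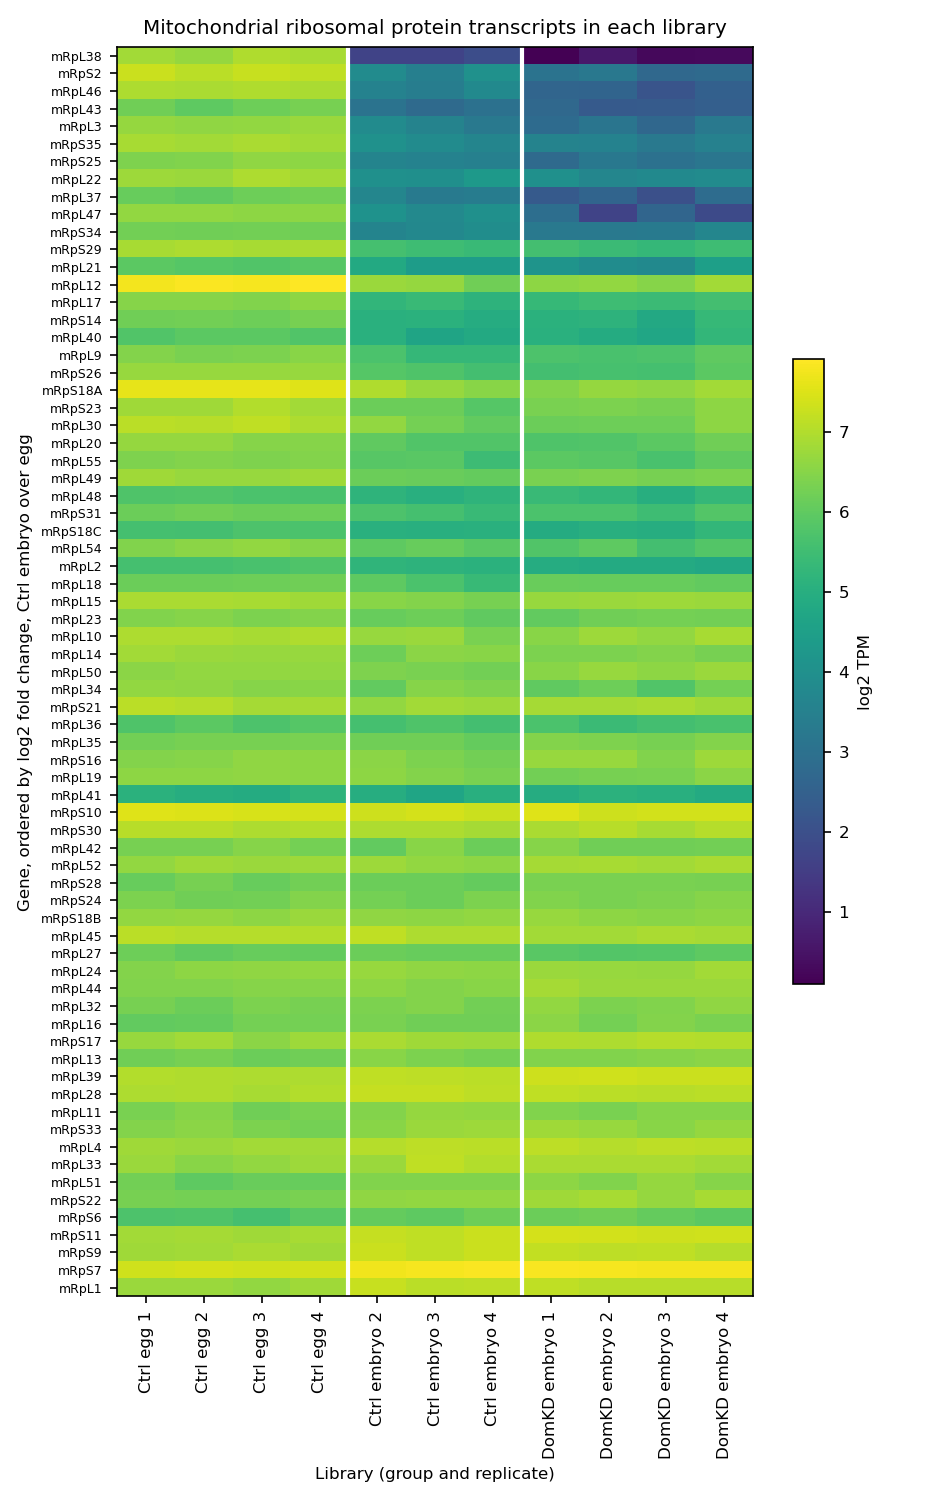
Level of each of the 71 members in each of the 11 libraries, as log2 TPM (colour), with members ordered from the largest fall to the largest rise from Ctrl eggs to Ctrl embryos. The egg columns are nearly uniform, while 11 members at the top are dark in all embryo columns, each below 20 TPM on average in Ctrl embryos.

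The comparison of Ctrl embryos with Ctrl eggs asks which maternal messages are still present, or have been added to, at zygotic genome activation. Since each value is relative to the library total, it gives shares of the RNA and not copies per embryo. The members separated into a small group that fell several-fold and a majority that moved little. Of the 71 members, 36 were lower and 15 higher in embryos at an adjusted p under 0.05 (edgeR quasi-likelihood, Benjamini-Hochberg over 7565 genes), and 20 passed in neither direction. Among all genes tested, 39.2% were called lower and 46.6% higher (85.8% in all), against 50.7% and 21.1% of the members. The median log2 fold change was -0.24 over the members and 0.14 over all genes tested. Without Ctrl embryo replicate 2 the members' median was -0.11, with 35 lower and 16 higher. In CPM (counts scaled to the TMM-normalized library total), groups did not overlap for 36 members that were lower and 14 that were higher (38.8% and 46.1% of all genes tested).

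Of the 71 members, 11 (15.5%) were at least 4-fold lower in Ctrl embryos, a share near that of all genes tested (14.8%). Among all genes above 5 TPM in eggs, 17.2% were that much lower. A wide gap set these 11 members apart from the rest. The least changed of them, mRpS34, had a log2 fold change of -2.40, and the next member, mRpS29, of -1.35. All 11 lay below 20 TPM on average in Ctrl embryos, from egg levels typical of the family.

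The largest fall was that of mRpL38 (FBgn0030552, chromosome X, 14226289 to 14227949, plus strand), a mitochondria-specific protein of the large subunit. Its levels were 113, 103, 125 and 118 TPM in the eggs and 3.18, 3.204 and 3.83 TPM in Ctrl embryos. The embryos held only 36, 35 and 35 counts of it, each far under every egg (1209, 1219, 1509 and 1309 counts). It was 32.4-fold lower (log2 fold change -5.02, SE 0.12, adjusted p = 7.94e-11, edgeR).

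mRpS2 (FBgn0031639, chromosome 2L, 4849439 to 4850419, minus strand), a small-subunit protein with a bacterial counterpart, stood at 156, 137, 153 and 142 TPM in eggs and 14.5, 11.1 and 16.4 TPM in Ctrl embryos. This was a 10.2-fold fall from what was among the higher levels in eggs (log2 fold change -3.34, SE 0.11, adjusted p = 8.44e-10, edgeR). mRpL46 (FBgn0035272, chromosome 3L, 1777439 to 1778347, plus strand), whose human ortholog belongs to the part of the large subunit found only in mitochondria, had 124, 121, 126 and 121 TPM in eggs and 11.8, 10.6 and 13.99 TPM in Ctrl embryos. Its fall was 9.79-fold (log2 fold change -3.29, SE 0.096). In all of these the groups lay far apart.

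The large-subunit members mRpL43 and mRpL3 behaved likewise. mRpL43 went from 73.8, 62.1, 72.2 and 79.5 TPM in eggs to 8.37, 7.03 and 8.02 TPM in Ctrl embryos (log2 fold change -3.14, SE 0.12). mRpL3, which in bacteria reaches the catalytic centre, went from 102, 97.97, 99.97 and 107 TPM in eggs to 14.7, 11.95 and 9.62 TPM in Ctrl embryos (log2 fold change -3.00, SE 0.11). Of the embryo libraries, replicate 2 was the highest for mRpL3 and replicate 4 the lowest, but none came near an egg.

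The large-subunit members mRpL22, mRpL37 and mRpL47 completed this subunit's share of the group. mRpL22, whose bacterial counterpart lines the tunnel through which the new protein leaves, had 109, 106, 123 and 114 TPM in eggs and 16.4, 15.9 and 19.5 TPM in Ctrl embryos, so it was 6.29-fold lower. mRpL37 had 68.2, 64.4, 72.7 and 75.3 TPM in eggs and 12.9, 9.73 and 10.5 TPM in Ctrl embryos (6.1-fold lower). mRpL47, the counterpart of a bacterial protein at the tunnel exit in spite of its number, had 98.9, 99.5, 95.2 and 95.1 TPM in eggs and 17.1, 13.7 and 16.3 TPM in Ctrl embryos (5.96-fold lower).

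The other small-subunit members of the group are mitochondria-specific. mRpS35 had 117, 114, 119.7 and 114 TPM in eggs and 16.4, 14.6 and 12.6 TPM in Ctrl embryos (log2 fold change -2.94, SE 0.084). mRpS25 had 83.4, 86.2, 97.5 and 95.1 TPM in eggs and 12.3, 11.8 and 11.2 TPM in Ctrl embryos (log2 fold change -2.88, SE 0.11). mRpS34 had 75.2, 73.6, 75.4 and 74.3 TPM in eggs and 12.2, 13.4 and 15.1 TPM in Ctrl embryos (SE 0.11), and it was singled out after its values were seen because it completes the group. The adjusted p of each of the 11 members was at most 7.58e-09 (edgeR), and 11 members were at least 4-fold lower in every analysis that left out 1 library.

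**Figure D2:**
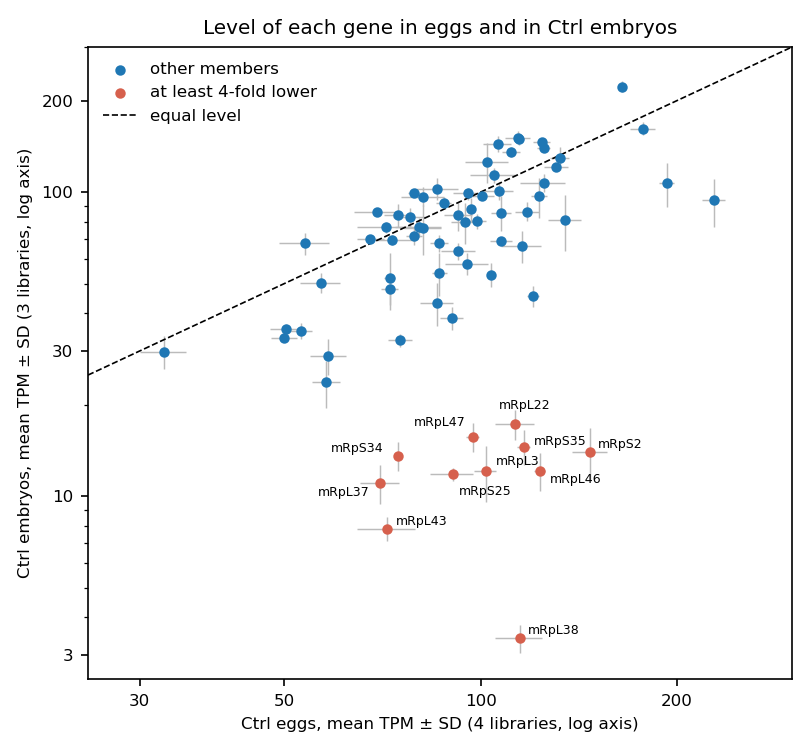
Mean TPM of each member in Ctrl eggs (x axis, 4 libraries) against Ctrl embryos (y axis, 3 libraries), both on log axes, with SD as bars and a dashed line of equal level. The 11 named members lie below 20 TPM in embryos, apart from the other 60, and mRpL38 is the lowest at 3.41 TPM.

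The other 60 members changed little. Their log2 fold changes ran from -1.35 to 0.50 with a median of -0.079, and 55 of them stayed within 2-fold. Of the 60, 25 were called lower and 15 higher. Summed over the 71 members, the level was 6941 to 7013 TPM in eggs and 5068 to 5364 TPM in Ctrl embryos. The 11 members contributed 15.3% to 16.7% of that sum in eggs and 2.33% to 2.71% in Ctrl embryos.

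Some of the most abundant egg messages were among the moderate falls. mRpL12 was at 106, 102 and 74.5 TPM in Ctrl embryos, below every egg, with replicate 4 the lowest (log2 fold change -1.22, SE 0.11, adjusted p = 1.38e-06, edgeR). Its partners in the stalk region moved less. mRpL10, to which mRpL12 binds, had 123 ± 3.495 TPM in eggs and 96.8 ± 14.5 TPM (SD, n = 3) in Ctrl embryos (log2 fold change -0.28, SE 0.095), while mRpL11, at the base of the stalk, rose from 81.5 ± 6.21 TPM in eggs to 96.7 ± 6.86 TPM in Ctrl embryos (log2 fold change 0.31, adjusted p = 0.0144, edgeR). The highest egg library of mRpL11 (89.5 TPM) overlapped the embryos (from 88.8 TPM).

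The proteins near the tunnel exit did not move together. Whereas mRpL22 and mRpL47 fell several-fold, mRpL23 had 86.4 ± 2.83 TPM in eggs and 67.9 ± 4.21 TPM in Ctrl embryos (log2 fold change -0.29, adjusted p = 0.00785, edgeR). mRpL24 had 95.6 ± 5.003 TPM in eggs and 98.97 ± 4.51 TPM in Ctrl embryos (log2 fold change 0.11, adjusted p = 0.153), and mRpL45, which in mammals holds the ribosome at the inner membrane, had 132 ± 4.35 TPM in eggs and 129 ± 11.4 TPM in Ctrl embryos (log2 fold change 0.024, adjusted p = 0.711, both from edgeR). Neither of the latter passed the test.

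The S18 paralogs, mRpS18A, mRpS18B and mRpS18C, also parted. mRpS18A fell from 185 to 197 TPM in eggs to 91.8 to 126 TPM in Ctrl embryos (log2 fold change -0.79, adjusted p = 9.34e-06, edgeR). mRpS18C fell from 47.5 to 52.5 TPM in eggs to 32.3 to 33.5 TPM in Ctrl embryos (log2 fold change -0.54, adjusted p = 4.22e-04, edgeR). mRpS18B lay at 95.8 to 105 TPM in eggs and 95.3 to 99.4 TPM in embryos, and its groups overlapped (log2 fold change 0.011, adjusted p = 0.88, edgeR). In human mitochondrial ribosomes the ortholog of mRpS18A sits in the large subunit, in spite of its symbol, as does that of mRpS30, which did not pass the test here (log2 fold change -0.050, adjusted p = 0.474, edgeR). mRpS29, the ortholog of the mammalian GTP-binding protein DAP3, fell from 120.3 ± 2.404 TPM in eggs to 45.4 ± 3.503 TPM in Ctrl embryos (adjusted p = 1.08e-08, edgeR).

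The members that rose did so by less than 1.5-fold. mRpS7, which in bacteria organizes the head of the small subunit, had 164, 168, 163 and 164 TPM in eggs and 213, 222 and 231 TPM in Ctrl embryos (log2 fold change 0.49, SE 0.066, adjusted p = 4.07e-05, edgeR). It was thereby the highest member in embryos, and all embryo libraries lay above all eggs. mRpL1, the protein of the mobile L1 stalk, had 106, 107, 99.3 and 112 TPM in eggs and 154, 138 and 141 TPM in Ctrl embryos (log2 fold change 0.50, SE 0.060). mRpS9, another protein of the head, had 110.2 to 121 TPM in eggs and 142 to 156 TPM in Ctrl embryos (log2 fold change 0.46, SE 0.061). mRpS11, of the platform, had 112 to 117 TPM in eggs and 143 to 156 TPM in Ctrl embryos (log2 fold change 0.45, SE 0.063). The groups of these members did not overlap, nor did those of mRpS6 (0.39), mRpS22 (0.39) and mRpL51 (0.38 on the log2 scale), whereas mRpL33 (0.36, adjusted p = 0.0238, edgeR) overlapped through egg replicates 1 and 4.

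By subunit, 25 of 46 large-subunit members were lower and 9 higher (median log2 fold change -0.27). For the small subunit it was 11 lower and 6 higher of 25 (median -0.081). Members at least 4-fold lower numbered 7 of 46 and 4 of 25. By number, 41 members fall in the bacterial range (mRpL up to 36 and mRpS up to 21), with 18 lower, 10 higher and 3 at least 4-fold lower (median -0.12). Of the 30 with higher numbers, 18 were lower, 5 higher and 8 at least 4-fold lower (median -0.54). The number is an imperfect guide to descent, as mRpL47 shows, and the difference between these classes was not tested.

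The positions of the 11 members were also described. They lay on chromosomes X (4 of the 11 members there), 3L (3 of 16), 3R (2 of 21), 2L (1 of 12) and 2R (1 of 11), in dm6. A divergently transcribed gene started within 500 bp of 51 members, including 7 of the 11. The gene CG2021 starts 28 bp from mRpL46 and had a log2 fold change of 0.31, and Kdm3 starts 99 bp from mRpL47 and had one of 0.70. In contrast, CG30183 beside mRpL43 was at -3.23 and CG11674 beside mRpL38 at -1.16 on the log2 scale. At least 4-fold lower were 1 of these 7 neighbours and 6 of the 41 tested beside other members. The exons of mRpS2, mRpL43, mRpL47, mRpS25 and mRpS34 overlap those of a gene on the other strand. The strand setting of the counting is not given in the sources used here. Whether reads from the shared bases were counted, lost or given to the wrong gene is therefore not known. Exons of mRpL38, mRpL46, mRpL3, mRpL22, mRpL37 and mRpS35 overlap no other gene.

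The comparison of DomKD with Ctrl embryos asks what the maternal knockdown of Domino does to the transcripts. Most members changed little. Of the 71, 5 were lower and 11 higher at an adjusted p under 0.05 (edgeR over 7727 genes, Benjamini-Hochberg) and 55 passed in neither direction. Among all genes tested, 15.5% were called lower and 10.6% higher (26.1% in all), against 7.04% and 15.5% of the members. The median log2 fold change was 0.091 over the members and 0.0028 over all genes. In CPM, groups did not overlap for 10 members that were lower and 18 that were higher (18.7% and 16.5% of all genes). The Ctrl embryo libraries are the same as in the comparison with eggs, so the values of a member in both comparisons are not independent.

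The members called lower were mRpL47, mRpL38, mRpL46, mRpL37 and mRpS2. mRpL47 had 17.1, 13.7 and 16.3 TPM in Ctrl embryos and 7.63, 3.201, 6.28 and 3.65 TPM in DomKD embryos, with replicates 2 and 4 the lowest. Every DomKD library was under every Ctrl library, at 23 to 46 counts against 96 to 125. The level was 2.92-fold lower (log2 fold change -1.54, SE 0.29, adjusted p = 0.00428, edgeR).

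mRpL38, with 3.18, 3.204 and 3.83 TPM in Ctrl embryos, had 1.07, 1.53, 1.19 and 1.23 TPM in DomKD embryos. This rests on 10, 17, 10 and 12 counts in the DomKD libraries, so the counting error is large, but the groups did not overlap. The log2 fold change was -1.36 (SE 0.23, adjusted p = 0.00299, edgeR).

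mRpL46 went from 11.8, 10.6 and 13.99 TPM in Ctrl embryos to 6.28, 6.096, 4.41 and 5.69 TPM in DomKD embryos (log2 fold change -1.04, SE 0.19, adjusted p = 0.00439, edgeR). mRpL37 went from 12.9, 9.73 and 10.5 TPM in Ctrl embryos to 4.99, 6.13, 4.07 and 7.204 TPM in DomKD embryos (log2 fold change -0.91, SE 0.20, adjusted p = 0.0083, edgeR). mRpS2 went from 14.5, 11.1 and 16.4 TPM in Ctrl embryos to 8.45, 9.27, 6.69 and 6.997 TPM in DomKD embryos (log2 fold change -0.76, SE 0.20, adjusted p = 0.0187, edgeR). In each the groups stood apart. Without Ctrl embryo replicate 4, mRpS2 no longer passed (adjusted p = 0.0771, edgeR), whereas the calls of the other 4 held with any 1 library left out.

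The remaining members with low levels in embryos did not pass the test. mRpL3 had 7.13, 8.71, 6.58 and 9.59 TPM in DomKD embryos (log2 fold change -0.54, SE 0.18, adjusted p = 0.0583, edgeR), mRpS25 had 7.03, 9.43, 8.08 and 8.96 TPM (-0.43, adjusted p = 0.101) and mRpL43 had 6.71, 4.99, 5.12 and 5.504 TPM (-0.42, adjusted p = 0.155). In these 3, every DomKD library was below every Ctrl library, for mRpL3 by a small margin. For mRpS34 (-0.32) and mRpL22 (-0.20 on the log2 scale) the groups overlapped. For mRpS35 (-0.31) they overlapped in CPM but not in TPM. For comparison, of the 1049 genes tested that were at least 4-fold lower in Ctrl embryos than in eggs, 315 (30.03%) were called lower in DomKD embryos, with a median log2 fold change of -0.21. Both comparisons share the Ctrl embryo libraries, and nothing particular to the members is read from these counts.

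**Figure D3:**
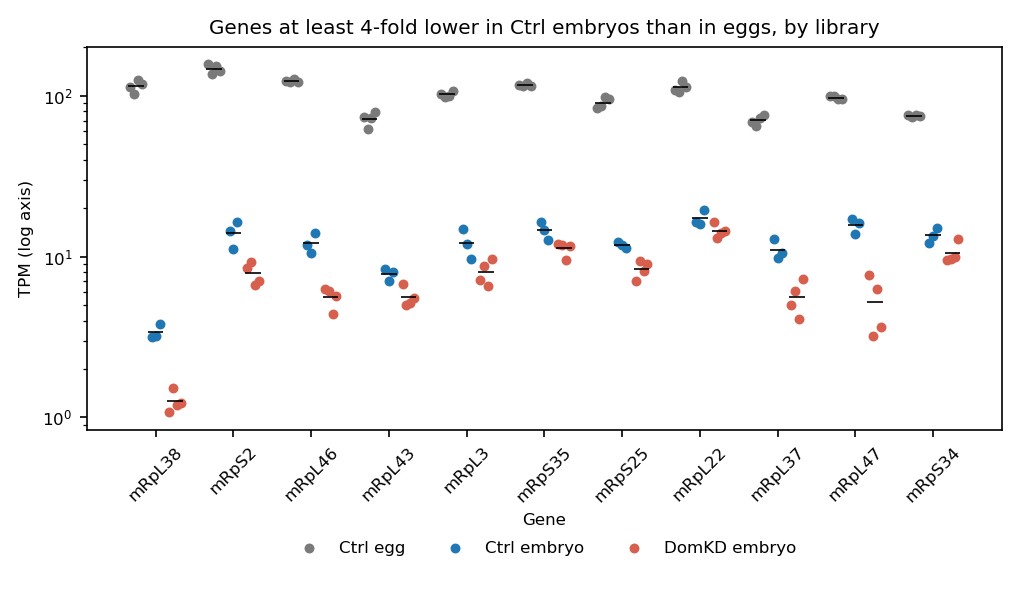
TPM (log axis) of the 11 members that were at least 4-fold lower in Ctrl embryos than in eggs, 1 point per library, with a line at each group mean. All embryo points lie below 20 TPM and under every egg point, and the DomKD points of mRpL22 and mRpS34 overlap those of Ctrl embryos.

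The 11 members called higher were so by at most 1.36-fold, and here too each value is relative to the library total. mRpL18, whose bacterial counterpart binds 5S RNA, had 63.2, 52.3 and 40.8 TPM in Ctrl embryos and 69.6, 67.9, 68.4 and 65.4 TPM in DomKD embryos (log2 fold change 0.44, SE 0.13, adjusted p = 0.0363, edgeR). Its DomKD libraries were close together and its Ctrl libraries were spread, with replicate 4 the lowest. mRpL9 had 51.4, 39.4 and 38.98 TPM in Ctrl embryos and 52.4, 50.4, 53.2 and 64.2 TPM in DomKD embryos (log2 fold change 0.41, adjusted p = 0.0367, edgeR), and mRpS23 had 70.8, 71.02 and 57.4 TPM in Ctrl embryos and 80.7, 82.7, 79.4 and 96.1 TPM in DomKD embryos (log2 fold change 0.41, adjusted p = 0.0257, edgeR). In both, Ctrl replicate 4 was the lowest, and for mRpL9 Ctrl replicate 2 lay among the DomKD libraries in TPM.

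Of the members called higher, only mRpL50 and mRpL15 passed with any 1 library left out. mRpL50, a mitochondria-specific protein, had 84.99, 80.2 and 75.9 TPM in Ctrl embryos and 91.3, 105, 96.1 and 106 TPM in DomKD embryos (log2 fold change 0.36, SE 0.086, adjusted p = 0.0128, edgeR). mRpL15, of the bacterial core, had 91.4, 87.9 and 79.4 TPM in Ctrl embryos and 105, 105, 109 and 106 TPM in DomKD embryos (log2 fold change 0.36, SE 0.078, adjusted p = 0.00911, edgeR). The groups of both did not overlap.

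The other members called higher were mRpL35 (log2 fold change 0.31), mRpL49 (0.30), mRpL44 (0.29), whose fold resembles that of an RNase III enzyme, mRpL52 (0.27), mRpS22 (0.24) and mRpL39 (0.24). Of these, mRpS22 was nearest to the threshold (adjusted p = 0.0489, edgeR), and mRpL52 and mRpL39 were named after their values were seen. Of the 11, all but mRpL49 and mRpL52 overlap exons of a gene on the other strand. Such an overlap is common in the family (41 of all 71 members), and its bearing on these calls was not tested. The number called higher was 2 without Ctrl embryo replicate 4 or without DomKD replicate 2, and 5 without DomKD replicate 1. It was 6 without Ctrl embryo replicate 3 or DomKD replicate 4. Without Ctrl embryo replicate 2 it was 4 (mRpL18, mRpL50, mRpL15 and mRpL9), with 5 lower and a members' median of 0.052. The other members called higher lost their call there. Against each Ctrl library on its own, the median over all members was 0.15 for replicate 2, -0.0027 for replicate 3 and 0.12 for replicate 4.

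**Figure D4:**
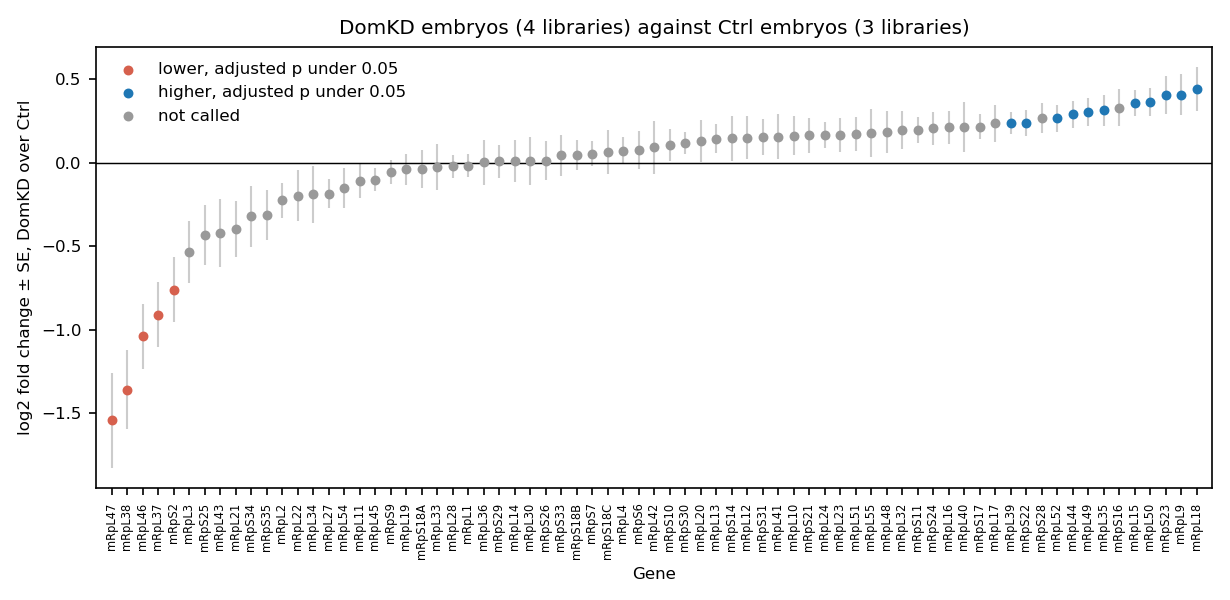
Log2 fold change ± SE of each of the 71 members in DomKD (4 libraries) over Ctrl embryos (3 libraries), in order, coloured by the edgeR call. The 5 members called lower reach -1.54, while the 11 called higher stay at or below 0.44.

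By role, the stalk protein mRpL12 had 74.5 to 106 TPM in Ctrl and 90.1 to 114 TPM in DomKD embryos, which overlapped (log2 fold change 0.15, adjusted p = 0.417, edgeR). Of the members near the tunnel exit, mRpL47 was called lower (-1.54, adjusted p = 0.00428, edgeR). mRpL22 (-0.20), mRpL23 (0.17), mRpL24 (0.17) and mRpL45 (-0.10), also near the exit, did not pass the test. The stalk members mRpL10 (0.16) and mRpL11 (-0.11) and the paralogs mRpS18A (-0.038), mRpS18B (0.047) and mRpS18C (0.063 on the log2 scale) likewise did not pass. Nor did mRpS7 (0.055), mRpL1 (-0.018), mRpS9 (-0.055) and mRpS11 (0.20), the members that rose most from egg to embryo. Of the large subunit 4 of 46 were lower and 9 higher, and of the small subunit 1 of 25 was lower and 2 higher.

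The evenness of the family differed between the groups of libraries, and this spread is given for the members alone. The SD of log2 TPM across the 71 members was 0.458 to 0.494 in eggs, 1.20 to 1.27 in Ctrl embryos and 1.51 to 1.56 in DomKD embryos. Across the 60 members outside the group of 11, it was 0.48 to 0.51 in eggs, 0.67 to 0.72 in Ctrl embryos and 0.68 to 0.77 in DomKD embryos. Without these 11, the values of Ctrl and DomKD embryos overlapped. The 11 were chosen for their fall in these same Ctrl embryos, so a smaller embryo spread without them follows from that choice. The ratio of the highest to the lowest member was 60.3 to 69.3 in Ctrl embryos and 147 to 211 in DomKD embryos. The lowest in DomKD embryos was mRpL38, which held only 10 to 17 counts there. The SD of log2 fold changes, a different measure, was smaller over the members than over all genes above 5 TPM in eggs. From eggs to Ctrl embryos it was 1.17 against 1.46, and in DomKD over Ctrl embryos 0.38 against 0.46. A wider spread in embryos is thus not read as particular to the members. The summed level was 5250 to 5583 TPM in DomKD embryos, which overlapped that of Ctrl embryos. The median member was at 71.8 to 73.8 TPM in Ctrl embryos and at 78.3 to 80.9 TPM in DomKD embryos, against 94.0 to 95.8 TPM in eggs.

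The partners of the mitochondrial ribosome and other ribosomal proteins were set beside the members. Among 85 cytoplasmic ribosomal protein genes tested, 82 were higher in Ctrl embryos than in eggs, 3 did not pass and the median log2 fold change was 0.49. Their 31 calls in DomKD embryos were all higher (median 0.17). The mitoribosomal proteins that carry other symbols fell from egg to embryo, tko (mitochondrial S12) from 59.3 ± 3.35 TPM in eggs to 50.1 ± 2.61 TPM in Ctrl embryos and bonsai (mitochondrial S15) from 158 ± 7.27 TPM in eggs to 58.1 ± 7.21 TPM in Ctrl embryos (log2 fold changes -0.18 and -1.38, adjusted p = 0.0273 and 2.70e-08, edgeR). Neither passed in DomKD embryos (adjusted p = 0.269 and 0.403, edgeR).

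Of 8 mitochondrial translation factors tested, 4 were lower and 3 higher in Ctrl embryos than in eggs. The elongation factor gene mEFTs fell from 175 ± 3.68 TPM in eggs to 49.5 ± 4.65 TPM in Ctrl embryos (log2 fold change -1.77). The ribosome recycling factor gene mRRF1 rose (0.59) and was the only factor called in DomKD embryos, where it was higher (0.51, adjusted p = 0.00726, edgeR). Of 17 genes tested for charging mitochondrial tRNA, 12 were lower and 5 higher in Ctrl embryos than in eggs, with 5 at least 4-fold lower (median log2 fold change -1.21). In DomKD embryos 3 of these were lower and 4 higher. The 4 were SerRS-m (log2 fold change 0.71), AsnRS-m (0.61), CysRS-m (0.48) and GatA (0.30). Of them, SerRS-m, AsnRS-m and CysRS-m had been lower in Ctrl embryos than in eggs, so their 2 changes had opposite signs. The 3 lower, AlaRS-m (-0.64), TrpRS-m and IleRS-m, were lower in both comparisons. TrpRS-m, for tryptophan, had 73.4 ± 3.92 TPM in eggs, 6.38 ± 1.46 TPM in Ctrl embryos and 2.51 ± 0.58 TPM in DomKD embryos (log2 fold changes -3.47 and -1.27). IleRS-m, for isoleucine, had 30.1 ± 1.37 TPM in eggs, 1.19 ± 0.596 TPM in Ctrl embryos and 0.52 ± 0.15 TPM in DomKD embryos. Its log2 fold changes were -4.58 and -1.12, the latter with an adjusted p of 0.0491 (edgeR), close to the threshold. Its embryo levels were low, so this call is weak. The 38 genes of the mitochondrial genome listed in the table had 0 counts in all libraries, so the messages that the ribosome translates were not measured here.

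**Figure D5:**
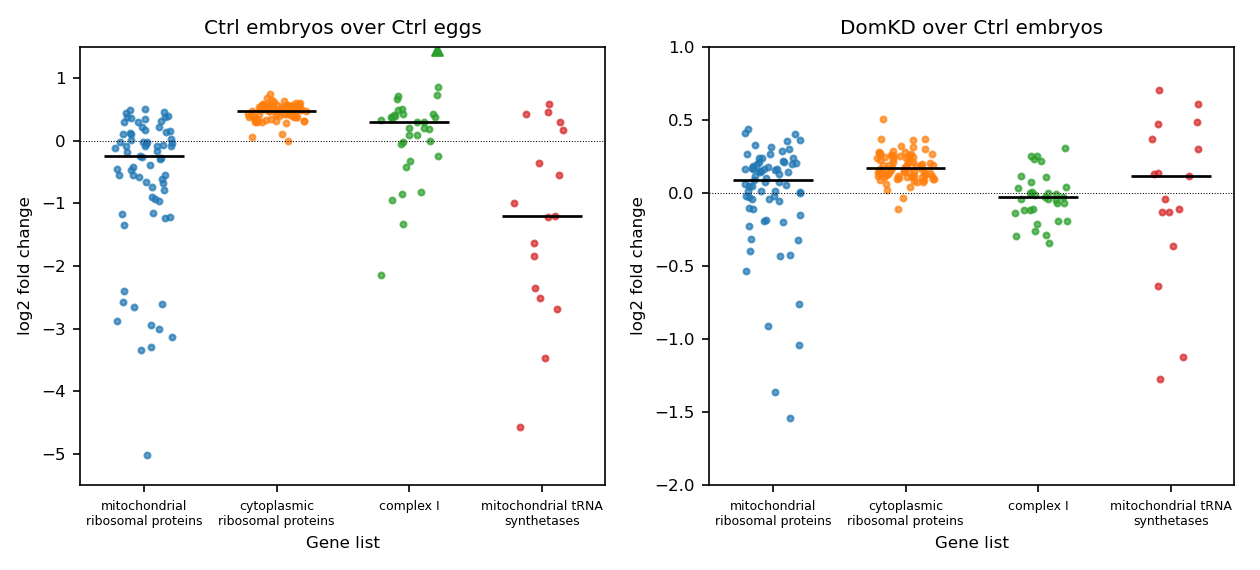
Log2 fold change of each gene tested (points) and the median (line) for the mitochondrial ribosomal proteins and 3 related lists, in Ctrl embryos over eggs and in DomKD over Ctrl embryos. Cytoplasmic ribosomal proteins form a narrow band near 0.49 in the first panel, while mitochondrial ones and tRNA synthetases extend down to -5.02 and -4.58. A triangle at the upper edge marks 1 complex I gene beyond the axis.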

How the data were processed

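RNA-seq libraries were made from total RNA of 4 Ctrl egg, 3 Ctrl embryo and 4 DomKD embryo samples with a stranded kit. The authors used the mRNA-seq workflow of snakePipes with trimming, the dm6 genome and Ensembl release 96. The authors deposited raw counts for each gene, for which the processing notes name featureCounts, beside exon lengths. The aligner, the strand setting and the treatment of reads with several matches are not given in the sources used here. A further column of the table (1) matched no listed sample and was not used. The methods name DESeq2 for the comparison of embryos.

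From the counts, edgeR 4.0.16 in R 4.3.3 was fitted with TMM normalization, group as the only term, on the libraries compared, over genes that averaged 10 or more counts there. P-values were adjusted over all genes tested (Benjamini-Hochberg, threshold 0.05), and the SE is the log2 fold change over the root of F. The fit was also run on simulated data in which few genes changed. Between eggs and embryos most genes were called, so that run does not check the normalization there. Alternatives were DESeq2 1.42.0, other normalizations, count limits and libraries, and a replicate block. Members and lists were chosen with earlier results of these data known. Named members were the 8 largest called changes each way in each comparison, the 4 highest and 4 lowest in eggs, and members with set roles. Gene positions come from a later Ensembl release in dm6 coordinates. Embryo libraries held 26985 to 37728 counts on members, so values of few counts carry a large counting error. No sequence is shown. Figures used Python 3.11.15 and matplotlib 3.10.9.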

Additional observations from a re-analysis of the deposited data

Results flagged for a closer look

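In 7 of the 82 groups of 4 libraries examined for named members, the highest or lowest library stood far from the other 3 in TPM. Chance gives about 1 in 20 such groups, and no explanation was tested. In eggs, mRpS23 was at 127.884 TPM in replicate 3 against 109.9 to 113.0 TPM in the others, mRpL50 at 93.989 TPM in replicate 1 against 99.9 to 100.7 TPM, and mRpL10 at 117.584 TPM in replicate 3 against 124.2 to 124.9 TPM. In DomKD embryos, replicate 1 was high for mRpL44 (115.942 TPM, others 105.4 to 106.3 TPM) and mRpL1 (143.936 TPM, others 133.8 to 135.3 TPM). Replicate 3 was low for mRpS35 (9.492 TPM, others 11.7 to 11.9 TPM) and high for mRpL45 (119.493 TPM, others 113.7 to 114.7 TPM).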

How the results depend on the processing

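With any 1 library left out, 47 to 51 members were called against eggs (35 to 36 lower, 11 to 16 higher, median log2 fold change -0.27 to -0.11). In DomKD embryos it was 7 to 14 (5 to 6 lower, 2 to 9 higher, median 0.048 to 0.12). Without a filter on counts, 9 members were higher against eggs (median -0.35), and with a mean of at least 100 counts it was 20 (median -0.17), around the 15 reported. In DomKD embryos, 25 members were called (9 lower) with all libraries in the fit and 8 (2 higher) with library size alone. With a mean of at least 100 counts, which left 62 members and none of the 5 called lower, 5 were called, 5 higher and 0 lower (4 lower at an unadjusted p under 0.05, edgeR). On the 29 members with no exon overlap, an analysis chosen after seeing the data, 2 were higher in DomKD embryos (median 0.010) and 4 against eggs (median -0.47). Of the 16 members called in DomKD embryos, those tested kept their direction in every one of these analyses, and the cause of the lost calls was not tested.

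Replicate numbers did not pair the libraries. Deviations of same-numbered libraries correlated at -0.039, -0.085 and -0.31 in embryos and at -0.15, -0.0097 and 0.072 between eggs and embryos. With a replicate block on replicates 2 to 4, 4 members were called in DomKD embryos (mRpL47, mRpL38, mRpL46 and mRpL37 lower, 0 higher, the calls of mRpL50 and mRpL15 among those lost, with 8 higher at an unadjusted p under 0.05, edgeR) and 46 against eggs.

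Among 877 further values for named members, 55 were weaker and no longer passed the threshold, 47 of them in DomKD embryos, and 3 were stronger. Another 27 changed sign, all below the threshold before and after. In DomKD embryos with library size alone these were mRpS7 (-0.0019), mRpS18B (-0.0100) and mRpS29 (-0.050), the last also with at least 100 counts (-0.027). Under the replicate block they were mRpS18A (0.011), mRpS18B (-0.0049) and mRpS29 (-0.053). With 1 library left out, the ranges were -0.0063 to 0.094 for mRpS18C, -0.012 to 0.093 for mRpS7, -0.13 to 0.052 for mRpS18A, -0.0055 to 0.076 for mRpS18B and -0.053 to 0.052 for mRpS29. Against eggs, mRpS10 (0.0020) and mRpS30 (0.021) turned with at least 100 counts, and mRpL24 (-0.0049), mRpL45 (-0.090) and mRpS18B (-0.10) without a filter. mRpS18B also turned with DESeq2 size factors (-0.0048), with DESeq2 (-0.0055) and under the replicate block (-0.0022). Ranges with 1 library left out were -0.15 to 0.035 for mRpL41, -0.019 to 0.065 for mRpS18B and -0.0014 to 0.070 for mRpL45.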

Other observations

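Genes for maintaining and expressing mitochondrial DNA and for the respiratory chain were described with the same fits. Of 10 genes tested for mitochondrial DNA, 4 were lower and 2 higher in Ctrl embryos than in eggs. The single-stranded DNA-binding protein mtSSB had 299.8 ± 5.8 TPM in eggs and 27.3 ± 3.55 TPM in Ctrl embryos, and the packaging factor TFAM had 240.4 and 237 TPM on average. The RNA-binding protein bsf was lower in Ctrl embryos than in eggs (log2 fold change -3.12) and lower again in DomKD embryos (-0.96, adjusted p = 0.00447, edgeR), and the RNA polymerase PolrMT was higher in DomKD embryos (0.34, adjusted p = 0.0251, edgeR). Of 33 complex I genes, 20 were higher and 8 lower in Ctrl embryos than in eggs (median log2 fold change 0.29), and in DomKD embryos 4 were lower and 1 higher. ATP synthase genes were 7 higher and 3 lower of 11 (median 0.33), with 2 lower in DomKD embryos. Complex IV genes were 7 higher and 1 lower of 8 (median 0.28), with 1 lower in DomKD embryos.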
